A study of Mus musculus with 10 samples.

Results

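Pericyte and smooth muscle genes were followed in RNA from Ly6G-selected cells of the infarcted mouse heart and of blood. The 10 genes are Rgs5, Pdgfrb, Cspg4, Kcnj8, Abcc9, Notch3, Acta2, Tagln, Myh11 and Vtn. They were taken by symbol, not by a measured value, although earlier results of these data were known. All 10 were found among the 28185 genes of the deposited table. Neutrophils of the mouse carry Ly6G on their surface, and cells were captured with anti-Ly6G magnetic beads from enzyme-digested left ventricle below the ligature or from blood. Every mouse was a male C57Bl/6J animal of 12 to 16 weeks whose left coronary artery had been ligated to cause myocardial infarction (MI), and cells were taken at day 3. MI (n = 3 libraries) and MI + MSC (n = 3) are cardiac libraries of mice without and with mesenchymal stromal cells (MSC), and Blood (n = 2) and Blood + MSC (n = 2) are the corresponding blood libraries, so the blood controls are infarcted mice too. The MSC were syngeneic cells cultured from mouse bone marrow, injected beneath the skin in 3 places, 1000000 cells at each.

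Values are gene counts scaled by a size factor and are called normalized counts, and the reads behind every value were recovered. MI 13 was the shallowest library with 148594 reads, Blood + MSC 24 the deepest with 8602711, and a single read is worth 8.40 normalized counts in MI 13 but 7.07 in Blood 21. MI 13 stood apart, with a correlation of 0.605 to 0.733 across tested genes to other cardiac libraries, which among themselves reached 0.892 to 0.968. The study's methods take the individual mouse as the unit of its animal experiments, and the labels tie no library to a mouse and no heart library to a blood library. The batch label has a value of its own for each group, so batch and group cannot be told apart. The cardiac selections also held transcripts of heart muscle. The 12 neutrophil markers summed to 2547 to 13539 normalized counts in cardiac libraries and 16828 to 52137 in blood libraries. The 10 heart muscle markers summed to 3265 to 24896 in cardiac libraries and 22.6 to 63.6 in blood libraries. In MI 13, 19 and 20 the heart muscle sums were 23633, 24896 and 8337, above neutrophil sums of 2547, 8004 and 5965. In MI + MSC 15, 17 and 18 the heart muscle sums were 3265, 4991 and 12984, against 8220, 13539 and 2833. Which cells held the members' transcripts was not tested.

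Pericytes wrap the capillaries and smooth muscle cells wrap the arteries and larger veins, and together they are called mural cells. Endothelial cells recruit them by secreting platelet-derived growth factor B, which binds the receptor encoded by Pdgfrb, and Notch signalling between endothelium and wall keeps them differentiated. Smooth muscle cells carry a contractile apparatus of smooth muscle actin and myosin, whereas capillary pericytes are known for regulators of vascular tone such as Rgs5 and a potassium channel that is gated by ATP. In bulk RNA, fewer cells of a type and less RNA per cell cannot be told apart.

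Rgs5, a regulator of G protein signalling that marks cardiac pericytes, was by far the most abundant of the 10 genes in the heart. It is ENSMUSG00000026678 at chr1:169483036-169524887 on the plus strand of GRCm39. MI libraries 13, 19 and 20 held 840, 680 and 647 normalized counts of it, whereas MI + MSC libraries 15, 17 and 18 held 134, 255 and 376. Blood libraries 21 and 22 gave 0 and 0.65, while Blood + MSC libraries 23 and 24 gave 0.525 and 0.337, from 0, 1, 2 and 2 reads. The cardiac groups did not overlap, and all 4 blood libraries were at or under the floor of 3 reads. The RefSeq promoter window of Rgs5 (250 bases before to 50 after the start in RefSeq's GRCm38.p6 table, found once in GRCm39 at chr1:169482820-169483119, plus strand) is shown because this gene had the highest level of the 10 in every cardiac library:
Rgs5: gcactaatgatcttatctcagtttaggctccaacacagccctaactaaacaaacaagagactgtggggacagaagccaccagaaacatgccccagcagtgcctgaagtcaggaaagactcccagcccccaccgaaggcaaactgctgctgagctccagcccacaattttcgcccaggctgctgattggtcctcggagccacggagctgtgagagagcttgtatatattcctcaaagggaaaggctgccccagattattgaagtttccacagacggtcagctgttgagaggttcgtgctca
The sequence has no capitals because it held no match to the CArG box, the motif of serum response factor known from smooth muscle promoters, also when 1 base of its A and T core was allowed to differ.

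**Figure D1:**
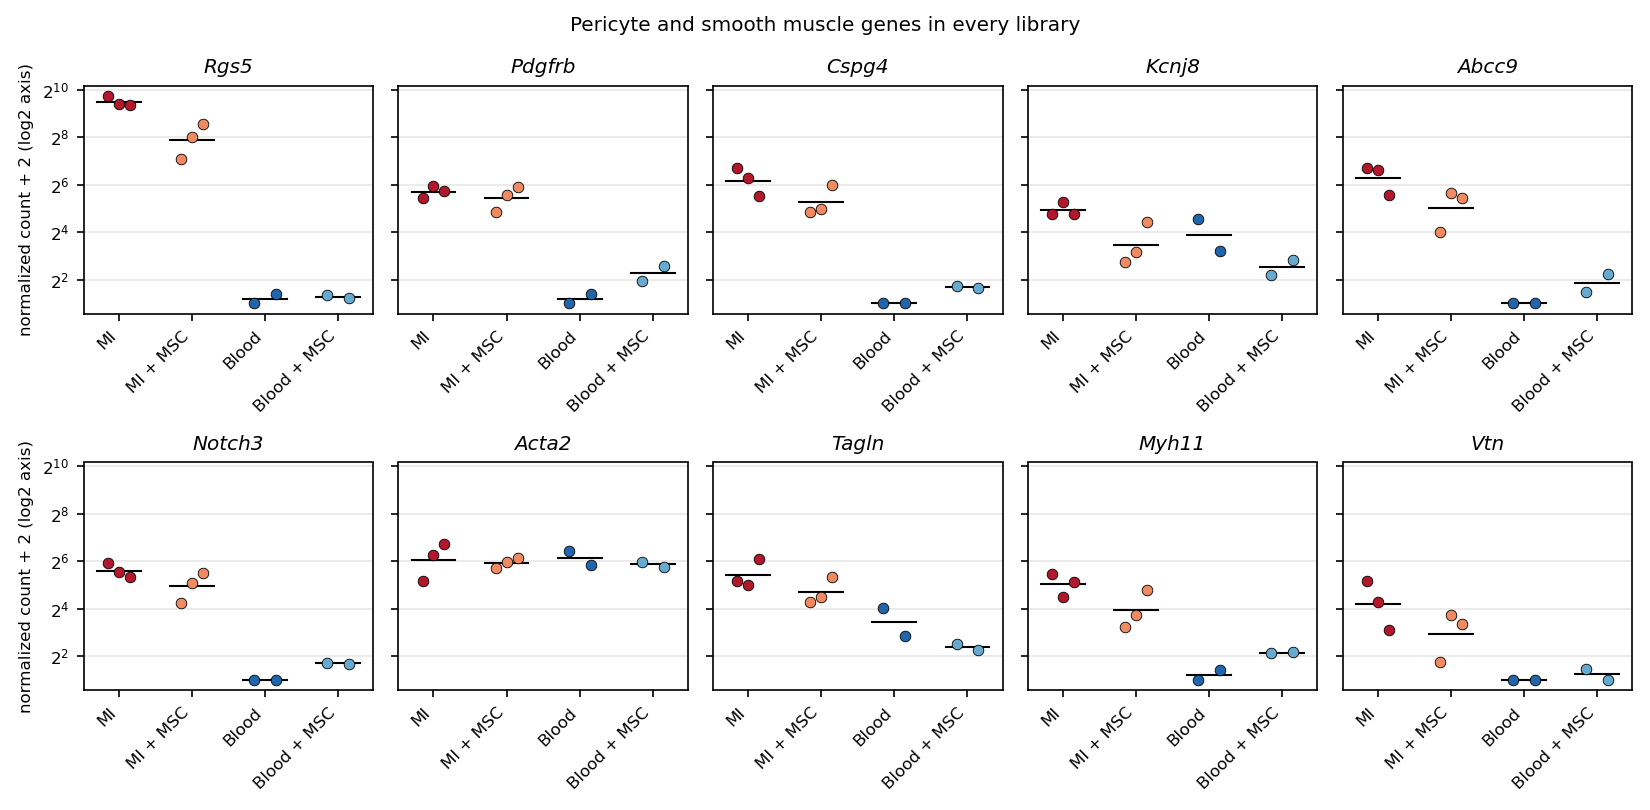
Normalized count + 2 (log2 axis) of the 10 genes in each library, 1 panel per gene, with points for libraries and a bar for the mean on the log scale. Rgs5 stands between 134 and 840 normalized counts in all 6 cardiac libraries and at 0.65 or less in all 4 blood libraries, whereas Acta2 lies between 33.6 and 103 in both tissues.

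Compared per kilobase of exon, the 10 genes fell into a steep order in the heart. In MI, Rgs5 stood at 117 ± 16.8 normalized counts per kilobase (SD, n = 3). The contractile genes Acta2 and Tagln followed at 21.9 ± 10.8 and 21 ± 9.55, within each other's spread. The other 7 genes lay between 4.17 (Myh11) and 7.69 (Kcnj8) per kilobase, and no neighbours among them in the order differed beyond their SD. In MI + MSC, Rgs5 (41.5 ± 19.7), Acta2 (18.3 ± 2.76) and Tagln (12.5 ± 5.57) again led, and the spread of Tagln reached that of Acta2. In blood the order was different. Acta2 led at 19.6 ± 4.53 per kilobase over the 4 blood libraries, followed by Tagln at 3.16 ± 2.54 and Kcnj8 at 2.39 ± 2.21, and the other 7 genes were at 0.202 or less.

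The comparison of MI with Blood addressed how the cardiac and blood selections differ in these transcripts without MSC. Limma was run on log2(normalized count + 2) over the 11549 genes whose mean reached 10, and a gene was called at a Benjamini-Hochberg adjusted p below 0.05 and a log2 fold change of 0.5 or more in size. Of the 10 genes, 9 passed the filter and Vtn, with a mean of 7.94, did not. Rgs5, Pdgfrb, Cspg4, Abcc9, Notch3, Tagln and Myh11, 7 of the 9, were called higher in MI, against 21.2% of all tested genes (34.7% in either direction). In MI + MSC against Blood + MSC, 6 of the 9 were called higher, against 8.23% of all tested genes (14.1% in either direction), Myh11 being the one that was no longer called. Most members passed the filter through the cardiac libraries, where they are high, so these counts are a description. With no filter, 8 of 10 were called higher in MI, against 11.1% of all genes, and 6 of 10 with MSC, against 2.81%. Over all cardiac and all blood libraries (6 against 4), 8 of the 10 genes did not overlap and were higher in the heart, as did 19.1% of tested genes.

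Rgs5 differed most between the tissues. Its level was at least 62.4-fold higher in MI than in Blood and at least 394-fold higher in MI + MSC than in Blood + MSC, both computed against the floor of 3 reads per library. Limma gave an adjusted p of 2.79e-06 and 1.71e-05. The gap between the 2 bounds follows the depth of the blood libraries, since 3 reads are worth a mean of 11.6 normalized counts in Blood and 0.646 in Blood + MSC.

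The receptors and surface proteins of mural cells were next. Pdgfrb (ENSMUSG00000024620), the receptor for platelet-derived growth factor B, stood at 42.0, 59.6 and 51.0 normalized counts in the MI libraries, while the MI + MSC libraries gave 27.0, 45.9 and 57.6. The Blood libraries gave 0 and 0.65, the Blood + MSC libraries 1.84 and 4.04, from 7 and 24 reads. Every cardiac library was above every blood library. The group means differed by at least 4.39-fold in MI over Blood (adjusted p = 0.000109, limma) and 14.8-fold in MI + MSC over Blood + MSC (adjusted p = 0.0021, limma). Cspg4 (ENSMUSG00000032911, chr9:56772317-56807187, plus strand) encodes the proteoglycan NG2 on the pericyte surface. It stood at 101, 75.9 and 44.3 normalized counts in the MI libraries, while the MI + MSC libraries gave 27.0, 29.8 and 61.7. Both Blood libraries were at 0, whereas Blood + MSC gave 1.31 and 1.18. Cspg4 was at least 6.37-fold higher in MI than in Blood and 31.7-fold higher in MI + MSC than in Blood + MSC. Notch3 (ENSMUSG00000038146, chr17:32339794-32385893, minus strand) encodes the Notch receptor of the vessel wall. MI gave 58.8, 45.2 and 38.1 normalized counts, whereas MI + MSC gave 16.9, 32.1 and 42.7. Its blood values were those of Cspg4, with no read in Blood, then 1.31 and 1.18 with MSC, from 5 and 7 reads. The cardiac level was at least 4.09-fold that of Blood and, with MSC, 24.6-fold. Cspg4 and Notch3 had limma adjusted p-values of 7.37e-05 and 0.000163 in MI against Blood and of 0.00173 and 0.00291 with MSC.

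Kcnj8 and Abcc9 encode a pore (Kir6.1) and a regulatory subunit (SUR2) of ATP-gated potassium channels. They lie side by side on the minus strand, Kcnj8 (ENSMUSG00000030247) at chr6:142510563-142517830 and Abcc9 (ENSMUSG00000030249) at chr6:142533588-142648571. Abcc9 was nearly absent from blood, whereas Kcnj8 was not. Abcc9 stood at 101, 97.1 and 45.3 normalized counts in the MI libraries, while the MI + MSC libraries gave 14.2, 48.2 and 41.4. No read fell on it in Blood, whereas Blood + MSC gave 0.788 and 2.69. The MI level was at least 7.01-fold that of Blood (adjusted p = 0.00016, limma) and, with MSC, 19.9-fold (adjusted p = 0.00644, limma, and 0.0978 without Blood + MSC 23). Kcnj8 stood at 25.2, 36.5 and 25.2 normalized counts in the MI libraries, while the MI + MSC libraries gave 4.73, 6.89 and 19.7. It was also detected in blood, where Blood gave 21.2 and 7.15, whereas Blood + MSC gave 2.63 and 5.05. Both Blood libraries were below the MI libraries, although the nearest values, 25.2 in MI 13 and 21.2 in Blood 21, rest on 3 reads each. Kcnj8 was not called in either tissue comparison by limma (log2 fold change 1.07 ± 0.63 SE, adjusted p = 0.204 in MI against Blood, with 0.40 to 1.74 when each library was left out in turn, and 0.93 ± 0.63, adjusted p = 0.337 with MSC), and limma-voom on the recovered reads called it in the first (1.81, adjusted p = 0.0291), along with 16.6% of all tested genes. The other pore and regulatory subunits of the channel family, Kcnj11 and Abcc8, were too low to be tested and were at 0 to 0.788 in every blood library. In the heart, Kcnj11 lay at 7.21 to 39.4 without MSC, 2.70 to 12.9 with it, and Abcc8 at 3.60 to 25.2, then 2.03 to 11.5. The part of heart muscle RNA in the cardiac values of these channel genes was not tested.

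The contractile genes differed from one another. Tagln (ENSMUSG00000032085, chr9:45840909-45847404, minus strand) encodes the actin-binding protein transgelin. It stood at 33.6, 29.8 and 65.4 normalized counts in the MI libraries, while the MI + MSC libraries gave 17.6, 20.7 and 38.6. Blood gave 14.1 and 5.20, whereas Blood + MSC gave 3.68 and 2.86. The mean was 4.44-fold higher in MI than in Blood (adjusted p = 0.0171, limma) and 7.84-fold higher in MI + MSC than in Blood + MSC (adjusted p = 0.0175, limma). The log2 fold change of 1.98 in MI against Blood became 2.56 without Blood 21, where Tagln rests on 2 reads, and 1.40 without Blood 22. These calls were lost without MI 20 (0.06) or Blood 22 (0.0874), without MI + MSC 18 (0.0782), Blood + MSC 23 (0.121) or Blood + MSC 24 (0.11), and, for MI against Blood, when only those 2 groups were fitted (0.0597), all values being limma adjusted p. Myh11 (ENSMUSG00000018830, chr16:14012399-14109236, minus strand) encodes smooth muscle myosin heavy chain. MI gave 42.0, 20.2 and 32.9 normalized counts, whereas MI + MSC gave 7.44, 11.5 and 25.8. Blood gave 0 and 0.65, whereas Blood + MSC gave 2.36 and 2.52. The cardiac libraries lay above the blood libraries in both comparisons, and the group means differed by at least 2.74-fold in MI over Blood (adjusted p = 0.00149, limma) and 6.09-fold with MSC. The second difference missed the threshold in limma (adjusted p = 0.0821) and passed it in edgeR (0.00788), DESeq2 (0.00232) and limma-voom (0.0113), which called 16.4%, 17.8% and 20.8% of all tested genes higher.

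Acta2, smooth muscle alpha-actin, was the exception (ENSMUSG00000035783, chr19:34217737-34232990, minus strand). MI gave 33.6, 75.0 and 103 normalized counts, whereas MI + MSC gave 50, 59.7 and 67.8. Blood gave 84.8 and 55.9, whereas Blood + MSC gave 60.2 and 52.7. The 4 groups overlapped. The blood values rest on 12, 86, 229 and 313 reads, and the ratio of means was 1.0 in MI over Blood and 1.05 in MI + MSC over Blood + MSC. Over 6 cardiac and 4 blood libraries the difference in mean log2 was -0.02 (two-sided exact permutation p = 0.971). Its log2 fold change of -0.10 ± 0.42 (SE) in MI against Blood changed sign under other processing, up to 0.64 without MI 13 and Blood 21, and was not called in any setting. Of the 50-base windows of its transcripts, 0.202% also occur in transcripts of other genes, such as Actg1, and for Myh11 the share is 0.34%, with Myh9 and Myh10. The gene overlaps Stambpl1 on the other strand, and counting was by strand. The Acta2 promoter window is shown beside that of Rgs5 because the 2 genes differ in where they were found. It is RefSeq's GRCm38.p6 window, found once in GRCm39 at chr19:34232724-34233023 on the minus strand, with near matches to the CArG box in capitals:
Acta2: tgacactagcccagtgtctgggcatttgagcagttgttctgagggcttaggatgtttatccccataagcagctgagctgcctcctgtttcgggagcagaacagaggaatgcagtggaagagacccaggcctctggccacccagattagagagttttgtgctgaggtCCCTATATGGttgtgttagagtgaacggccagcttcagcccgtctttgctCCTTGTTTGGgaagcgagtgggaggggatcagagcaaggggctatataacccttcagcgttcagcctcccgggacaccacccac
The capitals mark CCCTATATGG, which begins at position -84, and CCTTGTTTGG, which begins at -34, each with 1 base of the core that is not A or T. Positions are counted from the start in RefSeq's table, and the start used in these cells was not measured.

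RefSeq windows were found for 7 of the 10 genes and not for Pdgfrb, Tagln and Myh11. Near matches to the CArG box were present in the Acta2 window alone among the 7, and 9.98% of all 32851 windows of this length held one, 0.822% holding 2 or more. An exact CArG box was in 0 of the 7 windows and in 1.63% of all. The core letters TGGGAA of the site bound by RBPJ, the DNA-binding partner of Notch receptors, were found on either strand in 4 of the 7 windows (Kcnj8, Abcc9, Vtn and Acta2) and in 25.6% of all windows. In Acta2 that match overlaps the second near CArG box. These are matches of letters and not measured binding sites.

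Within a library, the ratios of Acta2 to Tagln and to Myh11 are given as a description with no test, since they were chosen after the values of these genes were known. Acta2 over Tagln was 1.0 to 2.89 in the 6 cardiac libraries and 6.0 to 18.4 in the 4 blood libraries. Acta2 over Myh11 was 0.8 to 6.73 in the heart and 20.9 to 86.0 in the 3 blood libraries with any Myh11 read. Of the ratios of Acta2 to any tested gene, 9.54% were lower in all cardiac than in all blood libraries.

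**Figure D2:**
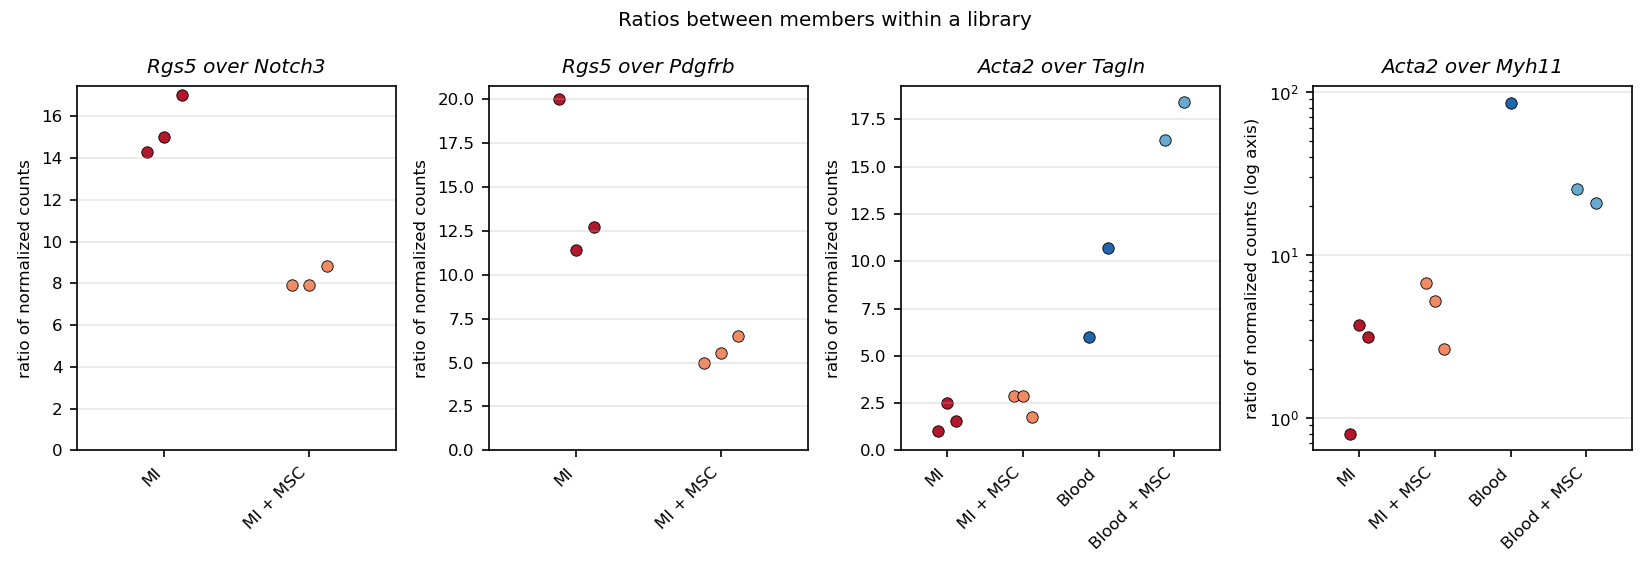
Ratios of normalized counts between 2 genes within a library, on linear axes except for the log axis of Acta2 over Myh11, with 1 point per library (Blood 21, with no Myh11 read, is missing from the last panel). Rgs5 over Notch3 lies at 14.3 to 17 in MI and 7.92 to 8.81 in MI + MSC, and Acta2 over Tagln at 2.89 or less in the heart and 6.0 or more in blood.

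Vtn (ENSMUSG00000017344, chr11:78388717-78393156, plus strand) encodes the adhesion protein vitronectin, which brain pericytes are known to express. It had the lowest mean normalized count of the 10 genes over all libraries, on a scale not corrected for length. MI gave 33.6, 17.3 and 6.69 normalized counts, whereas MI + MSC gave 1.35, 11.5 and 8.14. It was detected in 1 of 4 blood libraries, with 3 reads in Blood + MSC 23. The level was at least 1.66-fold higher in MI than in Blood and at least 10.8-fold higher in MI + MSC than in Blood + MSC. It was below the filter on the mean. With no filter, limma called it higher in MI than in Blood (log2 fold change 3.18 ± 0.83, adjusted p = 0.0149) and did not call it with MSC (1.71 ± 0.83, adjusted p = 0.318).

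The comparison of MI + MSC with MI asked how these transcripts differ with MSC treatment in the selections from the infarct. No member was called: 0 of the 9 tested genes, against 0.0% of all tested genes, passed limma's threshold, and 3 of the 9 had an unadjusted p below 0.05, against 8.01% of all tested genes. All 9 had a log2 fold change below 0, as did 51.1% of tested genes. Their median was -0.89, whereas the median over all tested genes was -0.01. Rgs5 had the largest difference, with means of 722 ± 104 in MI and 255 ± 121 in MI + MSC (SD, n = 3 each), which is 2.83-fold. Its log2 fold change was -1.61 ± 0.36 (SE), with an unadjusted p of 0.000915 and an adjusted p of 0.341 in limma. Leaving out each library in turn gave -1.95 to -1.21. DESeq2 on the recovered reads called Rgs5 lower (log2 fold change -1.54 ± 0.40, adjusted p = 0.0261) and none of the other members, against 0.45% of tested genes called lower (0.623% in either direction). EdgeR called 0 genes in all (Rgs5 adjusted p = 0.127), and limma-voom called 0.52% of genes and 0 members (Rgs5 adjusted p = 0.0602). Rgs5 was therefore lower in 3 of 3 MI + MSC libraries, and its call depends on the test.

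The potassium channel genes came next. Kcnj8 was 2.78-fold lower in MI + MSC by the means (log2 fold change -1.49 ± 0.56, adjusted p = 0.59, limma), and Abcc9 was 2.34-fold lower (-1.26 ± 0.54, adjusted p = 0.618, limma). Leaving out each library in turn gave -1.98 to -1.14 for Kcnj8, the first without MI + MSC 18, and -1.62 to -0.75 for Abcc9. Rgs5 and Kcnj8 were the only members whose MI and MI + MSC libraries did not overlap, 2 of 10. Without overlap, 9.6% of tested genes were lower in MI + MSC. For Kcnj8 the nearest values were 25.2 in MI 13, from 3 reads, and 19.7 in MI + MSC 18, from 29 reads. With 3 against 3 libraries an exact permutation p cannot go below 0.1. Myh11 (-1.09 ± 0.57), Cspg4 (-0.89 ± 0.47), Tagln (-0.69 ± 0.48) and Notch3 (-0.67 ± 0.47) had smaller log2 fold changes, with adjusted p-values of 0.647 to 0.687 in limma. With each library left out in turn, Myh11 ranged from -1.52 to -0.75 and Cspg4 from -1.24 to -0.63. Tagln ranged from -1.01 to -0.36 and Notch3 from -0.94 to -0.32. Vtn had a mean of 19.2 ± 13.6 in MI and 6.99 ± 5.16 in MI + MSC and overlapped.

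Pdgfrb and Acta2 stood at the other end. The log2 fold change of Pdgfrb was -0.26 ± 0.43 (adjusted p = 0.844, limma) and that of Acta2 -0.12 ± 0.38 (adjusted p = 0.923, limma). Each changed sign when 1 library was left out, Pdgfrb to 0.03 without MI + MSC 15 and Acta2 to 0.21 without MI 20. The members also differed within libraries, since Rgs5 over Notch3 was 14.3, 15 and 17 without MSC but 7.92, 7.93 and 8.81 with it, and Rgs5 over Pdgfrb was 11.4 to 20, then 4.95 to 6.53. The ratio of Rgs5 to Pdgfrb, Notch3 and Acta2, 3 of 9 members, was lower in MI + MSC without overlap, and the same held for 73.0% of the ratios of Rgs5 to all tested genes, so this share is no particular property of the members.

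**Figure D3:**
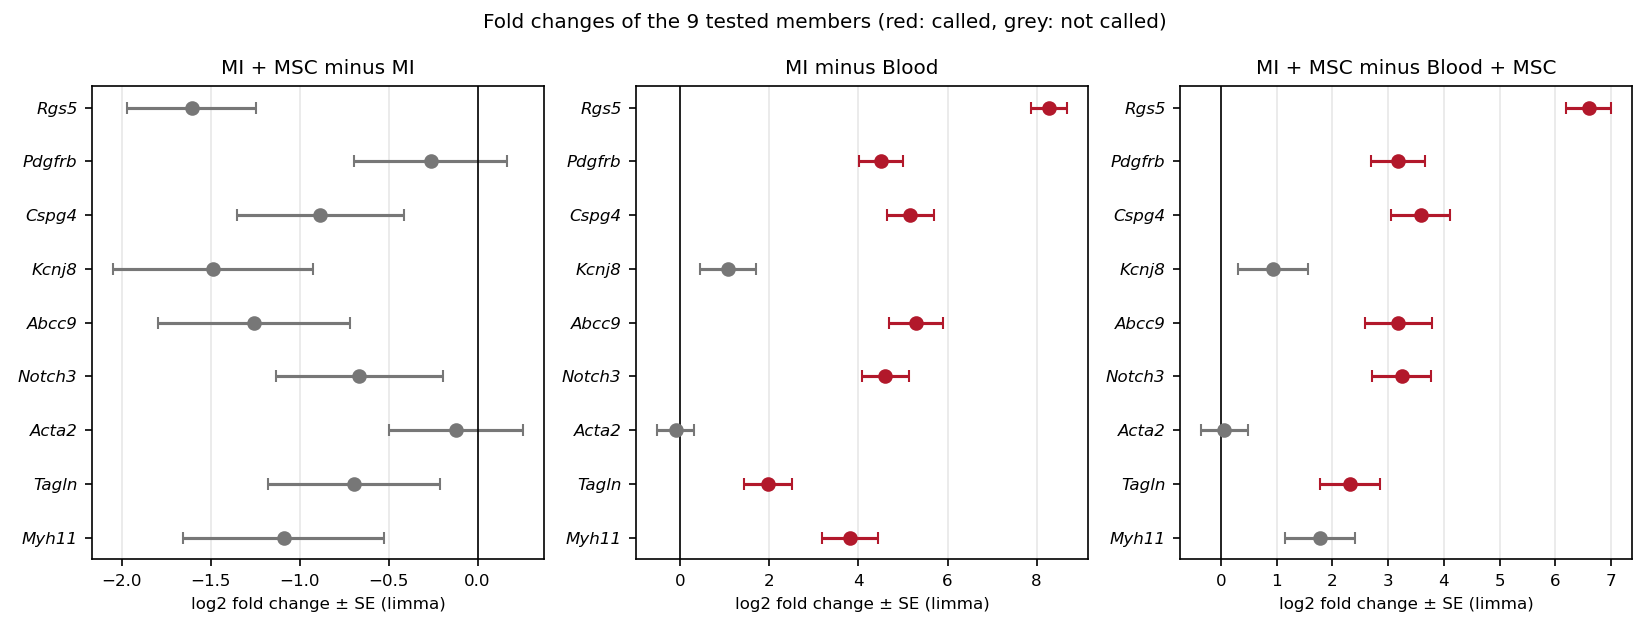
Log2 fold change ± SE from limma for the 9 tested members in MI + MSC minus MI, MI minus Blood, and MI + MSC minus Blood + MSC, with called genes in red. In the first panel all 9 lie below 0, from -1.61 (Rgs5) to -0.12 (Acta2), and none is called, and in the other panels 7 and 6 genes are called higher in the heart.

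Among MI + MSC libraries the sum of the 10 genes was lowest in library 15 and highest in 18, although Abcc9 and Vtn had their highest value in 17. The 10 genes summed to 300, 521 and 740 normalized counts in libraries 15, 17 and 18, and to 1311, 1136 and 1059 in MI libraries 13, 19 and 20. The summed level of 10 endothelial markers lay at 1911 to 2028 in MI and 453 to 864 in MI + MSC, and all 9 tested endothelial genes had a log2 fold change below 0 in MI + MSC against MI (median -1.60, 0 called). Cdh5, the cadherin of endothelial junctions, was at 478 to 513 in MI and 120 to 233 in MI + MSC. All 10 heart muscle markers were lower too (median -1.36, 0 called, sums of 8337 to 24896 and 3265 to 12984), whereas 8 tested fibroblast markers had a median of -0.24 with sums of 1051 to 1508 and 967 to 1719. No endothelial, heart muscle or fibroblast marker was at 0 in a cardiac library. Of 10 macrophage markers, 8 had a log2 fold change above 0 (median 0.73, 0 called, sums of 2933 to 8024 in MI, then 6766 to 11441 with MSC). The sum of 9 platelet markers did not overlap, at 504 to 659 in MI, then 833 to 1764 with MSC, and Pf4 and Ppbp held most of it. Pf4 was at 252 to 516, then 682 to 1233, and Ppbp at 75.1 to 127, then 124 to 504. Of the 9 markers, 7 had a log2 fold change below 0, and the median was -0.61. The part of these other cell types in the members' difference was not tested.

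**Figure D4:**
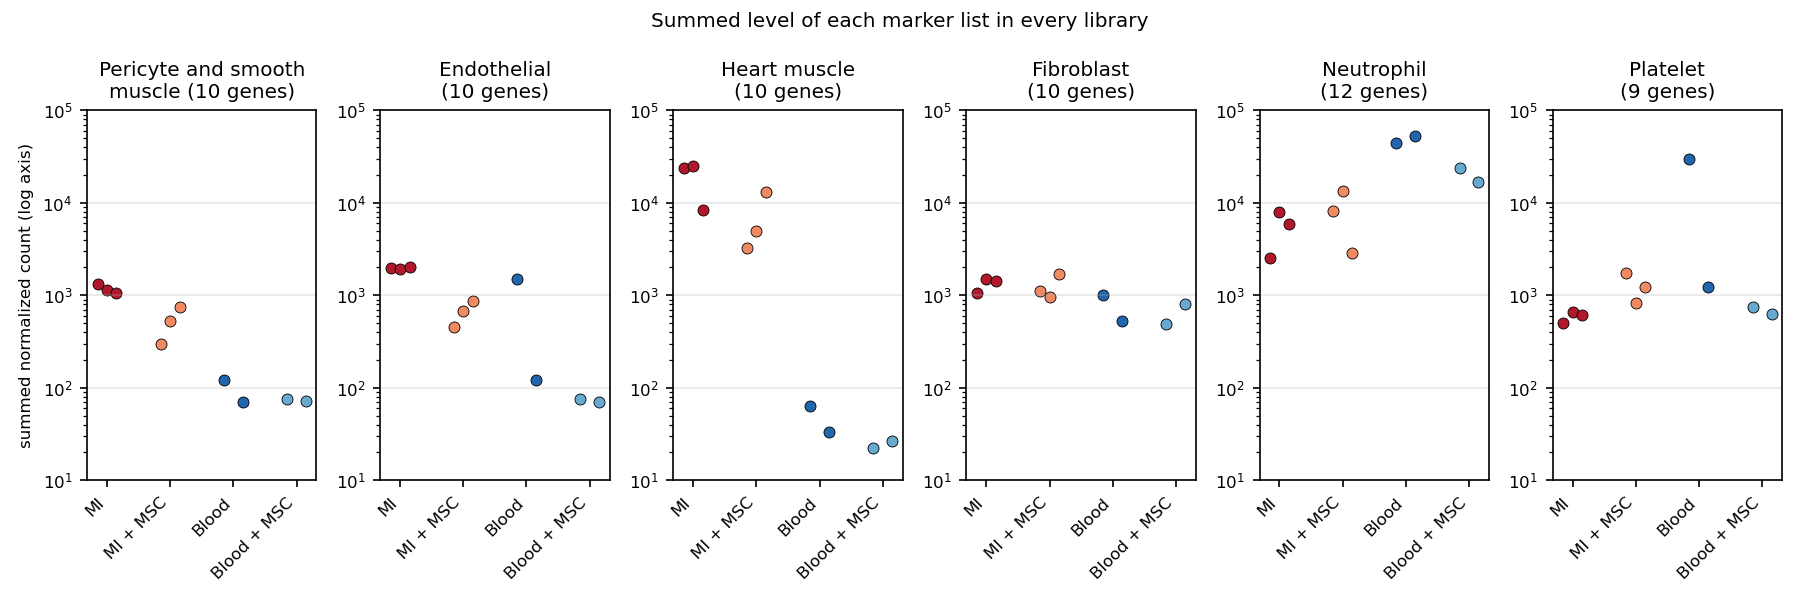
Summed normalized count (log axis) of the 10 pericyte and smooth muscle genes and of 5 marker lists in each library. The members sum to 1059 to 1311 in MI, 300 to 740 in MI + MSC and 70.2 to 120 in blood, and the endothelial sums do not overlap between MI and MI + MSC whereas the heart muscle sums do, while Blood 21 stands apart in platelet genes at 30063.

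In blood, the comparison of Blood + MSC with Blood had little to measure for these genes. Of the 9 tested, 0 were called by limma, where 0.0% of all genes were called, and 0 had an unadjusted p below 0.05, against 7.34% of tested genes. When only the blood groups were fitted, 1 member remained tested, so these counts say little about the members in blood. EdgeR called 0 genes, limma-voom 0.026% of genes and DESeq2 1.55%, and none of these was a member. In Blood, 7 of the 10 genes were at or under 3 reads in both libraries. The 3 that could be compared had log2 fold changes of -1.35 ± 0.69 (Kcnj8), -1.04 ± 0.59 (Tagln) and -0.28 ± 0.46 (Acta2), with limma adjusted p-values of 0.679, 0.696 and 0.922. With each library left out in turn they ranged from -2.02 to -0.68, -1.62 to -0.45 and -0.57 to 0.01, and the values of Kcnj8 and Tagln nearest 0 were those without Blood 21. Pdgfrb, with 7 and 24 reads in Blood + MSC against 0 and 1 in Blood, lay above both Blood libraries, but its counts there were under the floor that Blood 21 sets. The difference between the effects of MSC in heart and blood was tested as an interaction, in which 0 of 9 members and 0.0% of all genes were called by limma, with 3 of the 9 (Rgs5, Abcc9 and Myh11) and 7.26% of genes at an unadjusted p below 0.05. Its cardiac and blood parts were log2 fold changes of -1.61 and 0.08 for Rgs5, -1.26 and 0.85 for Abcc9 and -1.09 and 0.95 for Myh11, and the blood parts rest on Blood libraries at or under 3 reads for each of these genes. The lowest adjusted p among the members was 0.63. EdgeR and limma-voom called 0 genes and DESeq2 0.00866% of genes, none of them a member.

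The other genes of the smooth muscle apparatus were taken from a list of 15, of which 12 were tested. In MI + MSC against MI 0 of the 12 were called, 11 had a log2 fold change below 0, and the median was -0.87. In MI against Blood 4 were called higher and 3 lower, where 21.2% of all tested genes were called higher and 13.5% lower, and with MSC 4 were called higher and none lower, against 8.23% and 5.85% of all. Des, the intermediate filament of muscle, was at 318 to 731 in MI, 166 to 426 in MI + MSC and 5.55 or less in every blood library. Myocd, the coactivator that drives smooth muscle genes through CArG boxes, was at 22.1 to 50.4 in MI, 9.18 to 25.1 in MI + MSC and 0.673 or less in blood. Synpo2, an actin-bundling protein, was among the genes called with MSC (2.80, adjusted p = 0.0155, limma), at 12.8 to 47.5 in MI + MSC against 1.05 and 4.04 in Blood + MSC. Des is also a gene of heart muscle, and the part of heart muscle RNA in the values of this list was not tested.

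Flna, Myl9 and Tpm1 of that list did not share a direction between the tissues. Flna, the actin crosslinker filamin A, was at 748 to 1385 in MI and 3222 and 3594 in Blood (log2 fold change -1.60, adjusted p = 0.0159, limma). Myl9, the regulatory light chain of smooth muscle and platelet myosin, was at 28.8 to 41.7 in MI, 53.9 in Blood 22 and 3081 in Blood 21. Its call (log2 fold change -3.51, adjusted p = 0.0382, limma) includes Blood 21, and a fit without that library is not given for it. With MSC Myl9 was not called (-0.60, adjusted p = 0.764, limma). Tpm1, a tropomyosin, was at 321 to 891 in MI and at 431 and 64.3 in Blood 21 and 22, and it was called higher in MI + MSC than in Blood + MSC (2.42, adjusted p = 0.0347, limma). Blood 21 also held the platelet markers at a sum of 30063, against 634 to 1221 in the other blood libraries and 504 to 1764 in the heart. No platelet marker was at 0 in any blood library. Among the members, Acta2, Kcnj8 and Tagln had their highest blood value in Blood 21 (84.8, 21.2 and 14.1), from 12, 3 and 2 reads. The part of platelets in these values was not tested.

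A list of 22 further pericyte genes gave 21 in the table and 11 tested. In MI + MSC against MI, 0 were called, 10 had a log2 fold change below 0 and the median was -0.77. In MI against Blood 7 of the 11 were called higher and none lower, against 21.2% of all tested genes called higher, and with MSC 3 were, against 8.23%. Art3, an ADP-ribosyltransferase-like surface protein, was at 37.6 to 92.4 in MI, 7.44 to 40.7 in MI + MSC and 3.37 or less in blood. Itga7, a laminin-binding integrin, was at 28.3 to 134 in MI and at 7.07 and 0 in Blood, and Rgs4, a relative of Rgs5, was at 13.5 to 38.6 in MI and 0 in both Blood libraries. Cygb, cytoglobin, was at 18.9 to 45.4 in MI + MSC and 1.31 or less in Blood + MSC (log2 fold change 3.25, adjusted p = 0.00396, limma). The most abundant genes of the list were shared with blood cells to different degrees. Mcam, the adhesion molecule CD146, was at 67.3 to 110 in MI and 28.3 and 145 in Blood, Anpep, the aminopeptidase CD13, at 51.9 to 85.4 and 14.1 and 21.4, and Gucy1b1, a subunit of the nitric oxide receptor, at 18.3 to 25.2 and at 276 and 8.45, the first again in Blood 21.

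The ligands and receptors that act on mural cells were taken as a list of 17 PDGF, Notch and angiopoietin genes, of which 14 were tested. In MI + MSC against MI 0 were called, 12 had a log2 fold change below 0 and the median was -0.69. Pdgfb, the ligand of Pdgfrb, stood at 294, 146 and 156 without MSC but 72.3, 45.9 and 75.3 with it, without overlap (log2 fold change -1.55, adjusted p = 0.383, limma), and at 3.25 to 9.42 in blood. Pdgfd, a further ligand of that receptor, was at 68.2 to 75.6 in MI and 7.44 to 25.3 in MI + MSC (-1.94, adjusted p = 0.517, limma). Neither passed the test, and both values are larger in size than the -0.26 of Pdgfrb, a difference that was not tested. Dll4, the Notch ligand of arterial endothelium, was at 36.5 to 51.0 in MI, 11.5 to 26.4 in MI + MSC and 0.788 or less in blood, and Hes1, a Notch target, at 35.6 to 42.0, 21 to 36.7 and 3.20 or less. Of the 14 genes, 7 were called higher and 1 lower in MI against Blood, where 21.2% and 13.5% of all tested genes were, and 7 higher and 2 lower with MSC, where 8.23% and 5.85% were. With MSC, Notch4 of the endothelium was among the higher genes (2.78, adjusted p = 0.00175, limma).

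The Notch receptors differed in where they were found. Notch3 was found in the heart, as described above, whereas Notch2 was at 429 to 573 in MI and 1088 and 1661 in Blood (log2 fold change -1.46, adjusted p = 0.00763, limma) and was called lower in MI + MSC than in Blood + MSC as well (-1.49, adjusted p = 0.0145, limma). Notch1 lay at 221 to 328 in MI, 131 to 184 in MI + MSC, 318 to 529 in Blood, 369 to 780 in Blood + MSC, and was called lower in MI + MSC than in Blood + MSC (-1.75, adjusted p = 0.0117, limma), whereas MI and Blood overlapped (adjusted p = 0.239, limma). Rbpj, their shared DNA-binding partner, was at 198 to 460 in all 10 libraries and was not called. The receptors of vitronectin were present in both tissues. Plaur, the urokinase receptor, was called lower in MI than in Blood (-1.31, adjusted p = 0.0393, limma), as was Itgb3, an integrin subunit of platelets, which was at 1187 in Blood 21. Itgb5 was called higher in MI + MSC than in Blood + MSC (2.34, adjusted p = 0.032, limma), and Itgav, at 101 to 330 in all libraries, was not called.

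The genes whose levels were most like the mean of the 9 tested members were looked up as a description, by Pearson's r of log2(normalized count + 2). That mean was 6.11, 6.09 and 6.02 in MI, 4.56, 5.19 and 5.79 in MI + MSC and 2.12 to 2.49 in blood. Over all 10 libraries the nearest non-members were Sparcl1 (r = 0.997), Pcdh1 (0.995), Clec14a (0.995), Cyyr1 (0.995) and Arhgef15 (0.994), over points that fall into a cardiac and a blood cluster. Clec14a is known from endothelium. Over the 6 cardiac libraries they were Nedd4 (r = 0.99), Lrrk2 (0.988), Ak3 (0.987), Lzts2 (0.986) and Ltbp4 (0.986). The libraries differ in depth and in group, so these values name genes with a like pattern and nothing more.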

How the data were processed

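Per the study's methods, reads were trimmed with Trimmomatic, cleared of duplicates with Picard, aligned to GRCm39 with STAR and assigned to genes by strand with featureCounts, without mitochondrial reads. The deposited values are a signal that the authors made by scaling each library's gene counts with its DESeq2 size factor, and the deposited table named as raw counts is equal to it in all 281850 values and was not used. In each library 100% of values were whole multiples of 1 read (relative tolerance 0.001), which gave the recovered reads. The floor of 3 reads covers counting error alone. GENCODE's GRCm39 annotation held 27906 of the 28185 genes.

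Limma 3.58.1 with an intensity trend was fitted to log2(normalized count + 2) with 1 mean per group over all 10 libraries, for genes with a mean of at least 10. Fold changes on this scale understate low genes. Alternatives were edgeR 4.0.16, DESeq2 1.42.0 and limma-voom on recovered reads, pseudocounts of 1 and 8, no filter, a mean of at least 20, library-size scaling, only the groups compared, and each library left out. Scripts were tested on simulated data. R 4.3.3, Python 3.11.15 and scipy 1.17.1 were used.

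The members, lists and tests were chosen with earlier results of these data known. Named genes are the members, the 3 most abundant genes of each companion list, in tissue comparisons the 3 called genes of a list with the largest fold change, and the 5 genes most like the members. Lists have no test of their own. A result of 1 list gene is not reported here.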

Additional observations from a re-analysis of the deposited data

How the results depend on the processing

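In MI + MSC against MI, 0 members were called in every setting but DESeq2, which called 1 (Rgs5), with 9 members tested except for 10 with no filter or with only the groups compared and 7 with a mean of at least 20. With each library left out the number called ranged from 6 to 7 in MI against Blood, where 3209 to 4023 of all genes were called, and from 4 to 6 in MI + MSC against Blood + MSC. The 4 were without Blood + MSC 23, where Abcc9 and Tagln were lost and the calls over all genes fell from 1627 to 272. Acta2 changed sign: in MI against Blood its log2 fold change was 0.27 in edgeR, 0.27 in DESeq2, 0.44 in limma-voom, 0.40 with library-size scaling and 0.64 without MI 13 and Blood 21 (-0.44 to 0.34 with each library left out), in MI + MSC against Blood + MSC -0.028 in edgeR and -0.036 in limma-voom (-0.041 to 0.17), and in Blood + MSC against Blood 0.0075 with library-size scaling and 0.010 without MI 13 and Blood 21 (-0.57 to 0.010). In MI + MSC against MI, the values with each library left out were -0.57 to 0.21 for Acta2 and -0.49 to 0.030 for Pdgfrb. The cause was not tested. Library-size scaling moved the median log2 fold change of all genes from -0.01 to -0.15 in MI + MSC against MI and from 0.15 to 0.68 in MI against Blood. Without Blood 22, where the lone Blood 21 is assumed to vary like the other groups, limma called 1504 genes in Blood + MSC against Blood and 1086 in the interaction, with 0 members in either. No paired analysis was possible because the groups share no replicate numbers. Depth limits the blood folds, which are lower bounds where Blood has at most 3 reads.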
